A study of Mus musculus with 12 samples.

Results

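The 10 genes described here belong to granulocyte granules and to the first steps towards granulocytes: Mpo, Elane, Prtn3, Ctsg, Ms4a3, Ly6c2, S100a8, S100a9, Camp and Gfi1. They were matched by symbol, and 10 of 10 were among the 19463 genes of the tables. Cells were LSK cells, negative for lineage markers and positive for Sca-1 and Kit, sorted one per well from C57BL/6J fetal livers at embryonic day 18.5 and processed by SORT-seq, which counts the 3′ ends of transcripts by unique molecular identifiers (UMIs). The design held 12 plates: 3 from wild-type (WT) fetuses, 3 from fetuses lacking the translesion polymerase REV1 (Rev1-/-, called Rev1 knockout here), 2 from fetuses homozygous for the K164R change in PCNA, the lysine that receives ubiquitin at stalled replication forks (PcnaK164R/K164R, called Pcna K164R) and 4 from fetuses with both changes (double mutant). The comparisons ask how loss of these routes of DNA damage tolerance, alone and together, bears on early blood progenitors.

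Granulocytes fill their granules in a fixed order. Promyelocytes make the primary (azurophil) granule proteins: myeloperoxidase (Mpo), neutrophil elastase (Elane), proteinase 3 (Prtn3) and cathepsin G (Ctsg). Later stages make the antimicrobial peptide precursor CAMP of the specific granules and the calcium-binding pair S100A8 and S100A9 of the cytosol. Ms4a3 marks granulocyte-monocyte progenitors, Ly6c2 encodes a surface antigen of myeloid progenitors and monocytes, and GFI1 is a transcriptional repressor needed for neutrophil development that also acts in stem and lymphoid progenitor cells. The factors PU.1 and C/EBP drive many granule genes.

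Wells with at least 1000 UMIs outside the spike-in rows were kept, 3088 of 4608 (82 to 381 per plate), with 212938 to 11617420 UMIs per plate and median depths of 1730 to 34853 UMIs per well. All plates carry the same well numbers, so a well was identified by its plate and number. The thinnest plate was double mutant replicate 3, with 82 kept wells. Rev1 reads gave 11.0, 20.5 and 13.3 counts per 1000000 UMIs (CPM) on the WT plates and 6.00, 1.35 and 4.04 CPM on the Rev1 knockout plates. The library labelled double mutant replicate 4 had 13.7 CPM, against 1.29 to 4.70 CPM on the other double mutant plates. The calls, the shares of wells tested between double mutant and WT and the genes nearest the threshold are therefore also given without it. Whether the 3′ tags lie in the deleted part is not given in the sources used here. Plates came from 3 sort sessions (session 1: WT 1, both Pcna K164R, double mutant 1 and 2; session 2: Rev1 knockout 1, double mutant 3; session 3: WT 2 and 3, Rev1 knockout 2 and 3, double mutant 4), and no flow cell held both WT and double mutant plates. Kit, one of the genes that define the sort, was found in 5.88% (double mutant 3) to 80.6% of wells per plate, each thinned to 3000 UMIs, and Ly6a, which encodes Sca-1, in 0% (double mutant 3) to 27.6%.

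The promoters of members were read to set the expression data beside shared sequence. Windows of 250 bases before the start of each gene were taken from RefSeq (GRCm38.p6), 10 of 10 members were found, and 8 motifs were searched on both strands. The PU.1 motif GAGGAAGT lay in a window of 5 of 10 members (Mpo, Elane, Prtn3, S100a8 and Ly6c2), against 2.44% of 32851 promoter windows of the same length. A member was counted when any of its windows matched, and Ly6c2 had more than a single window, so counts of members and shares of windows differ in unit. The PU.1 motif contains the ETS core GGAA, which was in 10 of 10 members and 93.4% of windows. The C/EBP motif TTGCNNAA lay in 2 members (S100a9 and Gfi1; 9.56% of windows), the RUNX motif TGTGGT in 3 (14.0%), the Myb motif TAACNG in 2 (19.8%), the shorter Myb core AACTG in 6 (39.1%), TATAAA in 2 (12.4%) and the GFI1 motif AAATCA in 0 (12.4%). Shown are the windows of 4 of the members with the PU.1 motif, and the window of Gfi1 with its C/EBP match. Capitals mark the match, and each line runs 5′ to 3′ in the direction of the gene. They are the windows of Mpo at chr11:87793534-87793783 (+), Elane at chr10:79886062-79886311 (+), Prtn3 at chr10:79879417-79879666 (+), S100a8 at chr3:90668821-90669070 (+, match on the reverse strand) and Gfi1 at chr5:107725806-107726055 (-).
Mpo: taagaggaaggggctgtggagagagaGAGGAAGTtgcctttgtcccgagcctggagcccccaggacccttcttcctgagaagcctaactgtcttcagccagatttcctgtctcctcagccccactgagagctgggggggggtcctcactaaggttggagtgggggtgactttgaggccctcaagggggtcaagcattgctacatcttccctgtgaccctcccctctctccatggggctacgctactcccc
Elane: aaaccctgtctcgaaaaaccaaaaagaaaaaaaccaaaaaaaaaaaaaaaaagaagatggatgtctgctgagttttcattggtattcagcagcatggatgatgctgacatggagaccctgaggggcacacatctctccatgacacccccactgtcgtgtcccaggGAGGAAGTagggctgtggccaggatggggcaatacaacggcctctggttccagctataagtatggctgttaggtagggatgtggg
Prtn3: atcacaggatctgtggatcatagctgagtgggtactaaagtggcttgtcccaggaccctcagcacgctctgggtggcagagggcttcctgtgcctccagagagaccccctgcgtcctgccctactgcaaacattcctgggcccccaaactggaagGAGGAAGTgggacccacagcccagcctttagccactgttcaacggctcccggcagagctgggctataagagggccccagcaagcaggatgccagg
S100a8: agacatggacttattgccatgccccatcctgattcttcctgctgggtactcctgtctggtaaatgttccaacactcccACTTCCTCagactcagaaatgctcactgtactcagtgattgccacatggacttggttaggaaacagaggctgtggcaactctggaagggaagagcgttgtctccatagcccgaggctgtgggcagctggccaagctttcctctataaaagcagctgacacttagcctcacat
Gfi1: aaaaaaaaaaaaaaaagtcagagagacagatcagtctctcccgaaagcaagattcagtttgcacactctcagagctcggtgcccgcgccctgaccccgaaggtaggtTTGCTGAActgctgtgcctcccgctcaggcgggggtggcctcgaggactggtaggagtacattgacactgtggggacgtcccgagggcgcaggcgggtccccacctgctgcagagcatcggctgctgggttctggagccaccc
The base of the match nearest the gene lay 217 bases before the start of Mpo, 78 before Elane, 88 before Prtn3, 165 before S100a8 and 136 before Gfi1. Prtn3 and Elane are neighbours on chromosome 10, with 3137 bases between them, and S100a8 and S100a9 lie 22595 bases apart on chromosome 3. The other members lie at chr14:56099885-56102574 (Ctsg), chr19:11629499-11640851 (Ms4a3), chr15:75108161-75112066 (Ly6c2), chr3:90692630-90695721 (S100a9) and chr9:109847377-109849456 (Camp). A match is a run of letters only, and factor binding was not measured.

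Mpo and Prtn3 were the members found in the most wells, 984 and 888 of 2811 brought to an equal depth of 3000 UMIs, followed by Gfi1 (524), Elane (251) and Ctsg (134). Mpo reached 289, 741 and 2056 CPM on WT plates 1, 2 and 3, 305, 649 and 343 CPM on Rev1 knockout plates, 342 and 331 CPM on Pcna K164R plates, and 445, 277, 272 and 232 CPM on double mutant plates. WT 2 and WT 3, both of session 3, stood above every other plate, while WT 1 lay within the range of the mutant plates. Prtn3, the protease gene next to Elane, ran from 155 CPM (WT 1) to 397 and 1248 CPM (WT 2 and 3), with 184, 313 and 140 CPM in Rev1 knockout, 207 and 221 CPM in Pcna K164R and 239, 205, 51.7 and 134 CPM in double mutant plates. WT 2 and WT 3 were again the highest plates. Since each transcript gives 1 tag at its end, these levels are not scaled by gene length.

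Elane was more uneven between plates than Mpo and Prtn3. It had 42.6, 441 and 1144 CPM in WT, 104 and 132 CPM in Pcna K164R and 126, 80.6, 136 and 139 CPM in double mutant plates. Rev1 knockout plates had 0.972, 158 and 0.202 CPM, which on plates 1 and 3 came from 6 UMIs and 1 UMI. On those same plates Mpo gave 1884 and 1699 UMIs and Prtn3 1138 and 695, so 2 of 3 Rev1 knockout plates held Mpo and Prtn3 transcripts almost without Elane. Ctsg, the fourth primary granule protease, had 45.7, 271 and 614 CPM in WT, 14.3, 107 and 24.6 CPM in Rev1 knockout, 46.7 and 86.9 CPM in Pcna K164R and 148, 72.1, 89.2 and 79.9 CPM in double mutant plates. Its lowest values were on the same Rev1 knockout plates as those of Elane.

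Both progenitor genes had their highest levels on WT 2 and WT 3, like Elane and Ctsg. Ms4a3 had 5.10, 71.3 and 224 CPM in WT, 0.486, 25.2 and 0.404 CPM in Rev1 knockout, 11.9 and 25.8 CPM in Pcna K164R and 21.1, 11.4, 18.8 and 34.5 CPM in double mutant plates. Ly6c2 had 2.75, 29.9 and 101 CPM in WT, 0, 1.58 and 3.03 CPM in Rev1 knockout, 1.28 and 2.62 CPM in Pcna K164R and 3.70, 3.10, 4.70 and 20.4 CPM in double mutant plates. Ly6c2 has a near-identical neighbour on chromosome 15, Ly6c1, so the split of reads between them is uncertain; Ly6c1 had 18 UMIs in all, against 526 for Ly6c2.

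Late genes varied widely between plates. S100a8 had 1.65, 481 and 1309 CPM in WT, 0, 58.1 and 230 CPM in Rev1 knockout, 35.4 and 120 CPM in Pcna K164R and 8.35, 24.8, 56.4 and 200 CPM in double mutant plates. Its partner S100a9 had 0, 251 and 861 CPM in WT, 0, 19.8 and 248 CPM in Rev1 knockout, 40.9 and 105 CPM in Pcna K164R and 1.38, 14.2, 32.9 and 57.0 CPM in double mutant plates. Camp was at 79.6 and 536 CPM on WT 2 and 3 and at 0 on WT 1, at 0, 0.451 and 89.1 CPM in Rev1 knockout, at 5.60 and 4.03 CPM in Pcna K164R, and at 0, 0, 0 and 0.416 CPM in double mutant plates, where it amounted to 1 UMI. For each late gene the range of the WT plates overlapped that of every mutant genotype, because WT 1 was at or near 0.

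**Figure D1:**
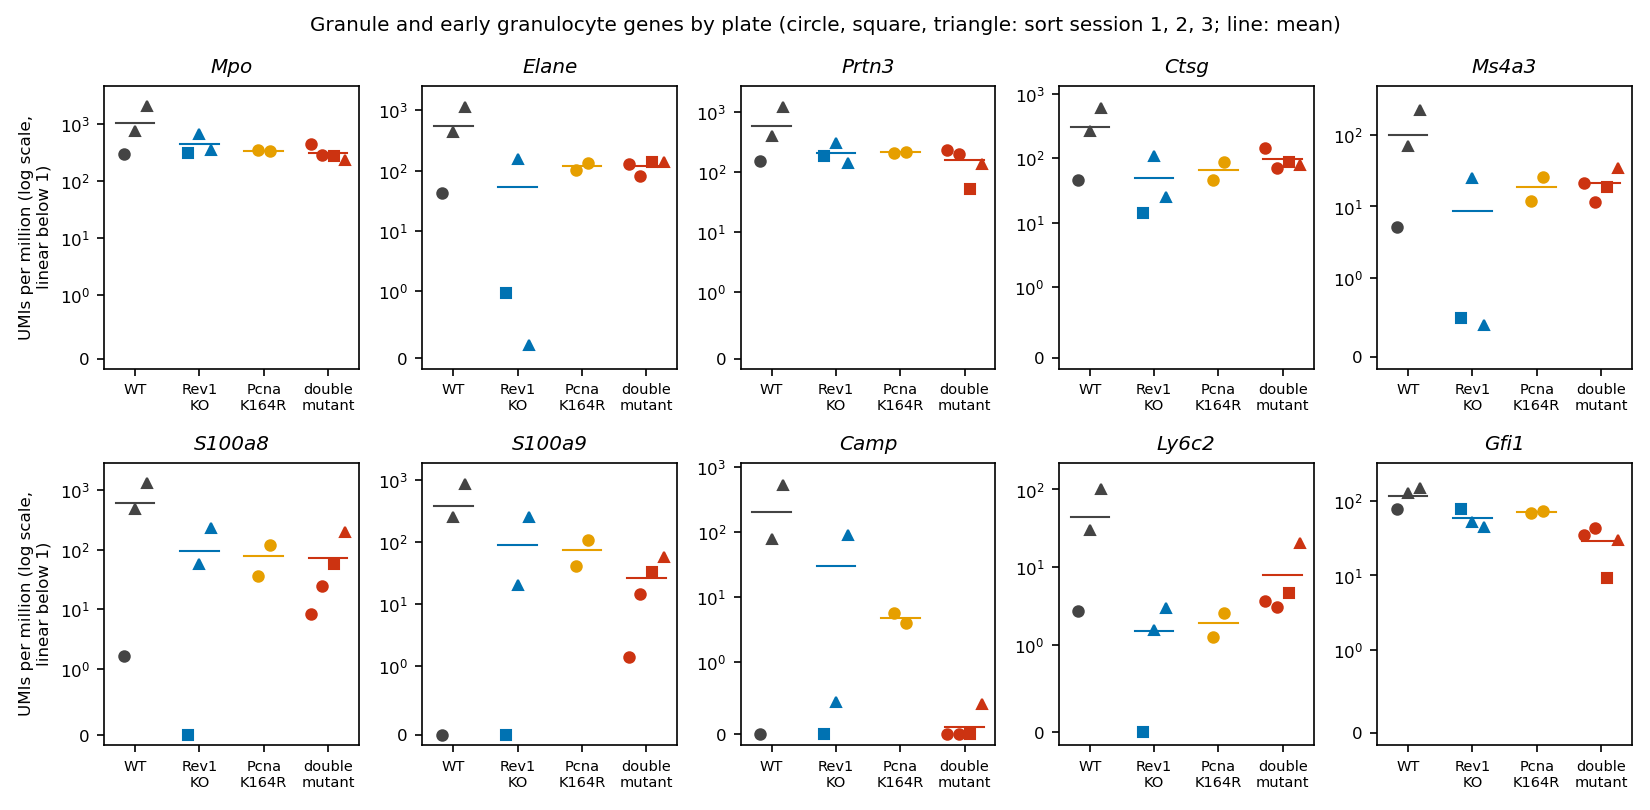
Each panel plots the level of 1 gene on the 12 plates, in CPM over kept wells, on an axis that is logarithmic above 1 and linear below; symbols give the sort session and lines the genotype mean. WT 2 and WT 3 (triangles) are above WT 1 (circle) for all 10 genes, and the double mutant plates lie below every WT plate for Gfi1.

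Pooled over plates, granule transcripts sat in few wells with many UMIs or in many wells with few, depending on the gene. In 2811 wells thinned to 3000 UMIs each (277 kept wells were too shallow; 17 to 371 wells per plate), Mpo had 1 to 9 UMIs in 947 wells and 10 or more in 37, and the latter held 35.1% of its UMIs. Prtn3 was alike, with 867 and 21 wells and 26.0%. Elane had 231 and 20 wells and 59.4%, and Ctsg 116 and 18 wells and 57.4%. In this pool Mpo and Prtn3 were thus spread over many wells while Elane and Ctsg came mainly from a small set. The smallest number of pooled wells that held 50% of the UMIs was 105 for Mpo, 151 for Prtn3, 15 for Elane and 15 for Ctsg. Plates differed in this. On WT 3 Elane was in 67 and Prtn3 in 69 of 156 wells, and 5 wells held 50% of the UMIs of each. On WT 1 they were in 19 and 127 of 371 wells, with 50% in 2 and 35 wells. Rev1 knockout 1 and 3 had Elane in 0 thinned wells, so the pooled Elane values mix plate differences with spread over cells.

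Late genes were the most concentrated. The 15 wells with 10 or more S100a8 UMIs held 90.2% of its UMIs, 7 wells held 80.0% of those of S100a9, and 4 wells held 79.7% of those of Camp. In the unthinned counts 1 well gave 1101 of the 1137 S100a8 UMIs of Rev1 knockout 3 and 422 of its 441 Camp UMIs. Another single well gave 1172 of the 1334 Camp UMIs of WT 3. The plate level of a late gene was therefore set by as few as 1 cell.

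Gfi1 showed the opposite pattern. It was found in 524 wells, never with more than 5 UMIs, and 50% of its UMIs were spread over 194 wells. Ms4a3 had 44 wells with 1 to 9 UMIs and 2 with 10 or more, and Ly6c2 had 23 wells, at most with 8 UMIs.

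To set these shares against a cell state that should lack granule RNA, wells with at least 5 of 16 erythroid markers were used (313 wells, median depth before thinning 40453 UMIs, against 16901 in the other 2498). Mpo was found in 10.5% of erythroid-marker wells and 38.1% of the others, Prtn3 in 5.75% and 34.8%, and Gfi1 in 0.958% and 20.9%. For these 3 genes the share in other wells, pooled over plates, exceeded the erythroid-marker level. On WT 1, 2 and 3 Mpo was in 6 of 32, 3 of 9 and 3 of 7 erythroid-marker wells. In the other wells of those plates it was in 128 of 339, 95 of 259 and 79 of 149. Elane was found in 5.43% and 9.37%, Ctsg in 2.24% and 5.08% and S100a8 in 1.60% and 2.44%. These shares pool plates, on which erythroid-marker wells made up 0.633% (Rev1 knockout 1) to 42.2% (double mutant 4). On WT 1, 2 and 3 Elane was in 1 of 32, 4 of 9 and 4 of 7 erythroid-marker wells. In the others it was in 18 of 339, 68 of 259 and 63 of 149, so WT 2 and WT 3 went against the pooled direction. Camp and Ly6c2 were found in 0 of 313 erythroid-marker wells, which allows a share of up to 0.958%.

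**Figure D2:**
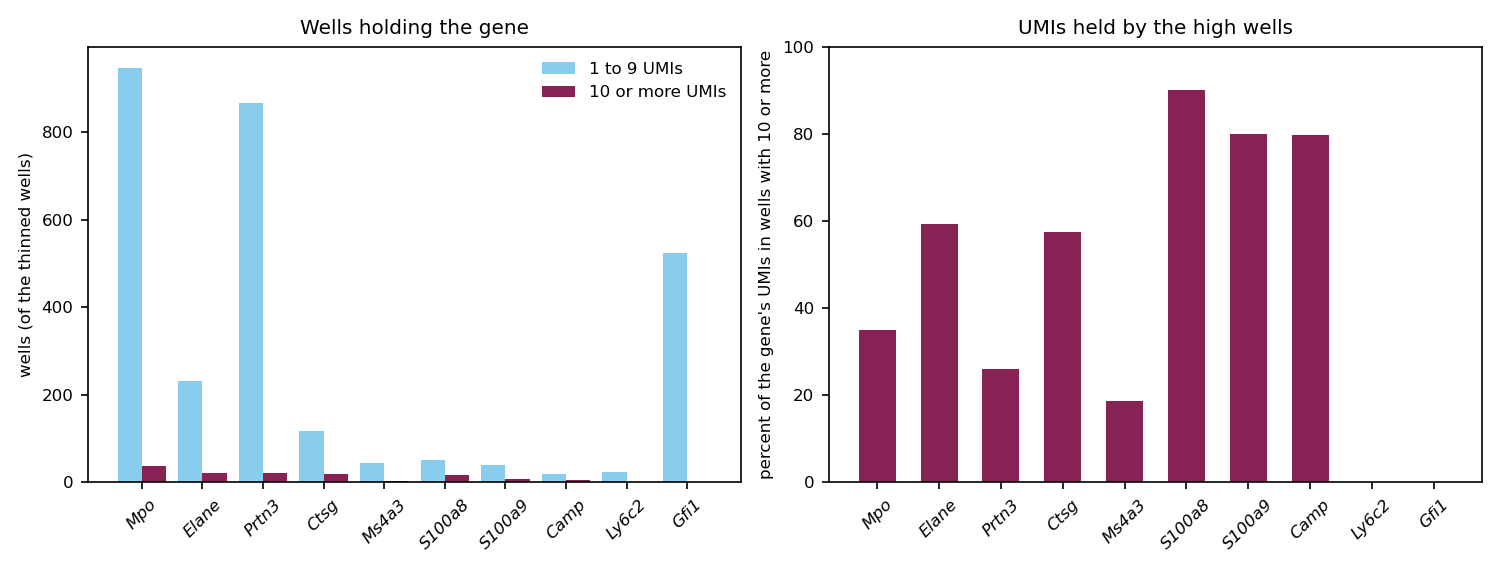
The left panel counts the wells, of 2811 thinned to 3000 UMIs, that held 1 to 9 or 10 or more UMIs of each gene; the right panel gives the percent of the gene's UMIs that lay in wells with 10 or more. Mpo, Prtn3 and Gfi1 have the most low wells, and S100a8, S100a9 and Camp have 79.7% to 90.2% of their UMIs in high wells.

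Wells with fewer than 10 summed UMIs of Mpo, Elane, Prtn3 and Ctsg, and fewer than 10 of the late genes, were examined apart on each plate. Elane gave 53.5 UMIs per 100 such wells on WT 3 and 29 on WT 2, where the high wells held 187 and 105 Elane UMIs, and 4.61 on WT 1, where they held 20. On Rev1 knockout 1 and 3 there was no Elane UMI in high or low thinned wells. Double mutant 3 gave 20 per 100 low wells with 4 Elane UMIs in its high wells, from 17 wells in all. Mpo gave 17.3 to 105 UMIs per 100 low wells, Prtn3 13.3 to 54.2 and Gfi1 3.70 to 44.0, on every plate, those without an Elane UMI included. The part of RNA carried between wells in these low counts was not tested.

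Wells high in primary granule genes (10 or more summed UMIs of the 4 genes) were present on every plate. They numbered 2 of 371, 9 of 268 and 13 of 156 wells on the WT plates, 3 of 316, 7 of 199 and 3 of 215 in Rev1 knockout, 5 of 333 and 3 of 269 in Pcna K164R, and 9 of 335, 4 of 249, 2 of 17 and 2 of 83 in the double mutant. The mean share was 4.62% ± 4.79 (SD, n = 4) in double mutant plates, 4.08% ± 3.95 (n = 3) in WT, 1.31% ± 0.273 (n = 2) in Pcna K164R and 1.95% ± 1.37 (n = 3) in Rev1 knockout plates. The spread within WT and within the double mutant was as wide as their means, and the double mutant mean rests on the 2 of 17 wells of replicate 3: without that plate the difference from WT was -1.84 percentage points in place of 0.540, and it was 1.28 when the library labelled double mutant replicate 4 was left out. In 5 pairs of genotypes no difference passed (exact two-sided permutation tests over plates, p = 0.857 for double mutant against WT, 0.7 for Rev1 knockout against WT, 0.6 for Pcna K164R against WT, Benjamini-Hochberg adjusted p = 0.857 in each of the 5 pairs). The smallest p these plate numbers allow is 0.0286 to 0.1. Within session 1 the double mutant share was 2.15% against 0.539% on the 1 WT plate, and within session 3 it was 2.41% on 1 plate against 5.85% in WT.

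The order of the genes was read from wells binned by their summed primary granule UMIs. In 1239 wells with 0, 1136 with 1 to 2, 374 with 3 to 9, 36 with 10 to 29 and 26 with 30 or more, Ms4a3 was found in 0.726%, 0.440%, 0.535%, 16.7% and 92.3% of wells. S100a8 was found in 1.37%, 1.32%, 3.21%, 16.7% and 61.5%, S100a9 in 0.484%, 0.968%, 2.67%, 13.9% and 53.8%, and Camp in 0.161%, 0.616%, 1.07%, 8.33% and 23.1%. Ly6c2 went from 0.161% to 53.8%. Of the members outside the sum that defines the bins, Ms4a3 was thus in 24 of the 26 wells with 30 or more primary UMIs, S100a8 in 16, S100a9 in 14, Ly6c2 in 14 and Camp in 6. The bins hold wells of 9 to 12 plates, unevenly: in the last, WT 2 gave 5 wells, 2 of them with 10 or more late UMIs, and WT 3 gave 7 wells, 6 of them with 10 or more. The other 7 plates with such wells had 0 to 43 late UMIs in them, 0 on WT 1 (2 wells) and 4 on double mutant 1 (4 wells), against 250 on WT 2 and more on WT 3.

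Gfi1 did not follow that course at low primary counts. It was found in 16.5%, 21.0%, 15% and 19.4% of wells in the first 4 bins, with no steady rise. In wells with 30 or more primary UMIs it was found in 65.4% (95% exact binomial interval 44.3% to 82.8%). The intervals of the first bin (14.5% to 18.7%) and the next (18.7% to 23.5%) barely met. The bins pool plates on which Gfi1 was found in 4.82% to 34.3% of wells, so a lack of change over the low bins cannot be read from them. Cebpe, the regulator of late granule genes, was found in 0 of 1239 wells of the first bin (which allows a share of up to 0.242%) and 46.2% of the last, and Fcnb, which encodes the granule lectin ficolin-B, in 0 of 1239 and 42.3%. Genes of multipotent cells went the other way between these bins: Cd34 was found in 46.5%, 62.4%, 68.7%, 41.7% and 15.4% of wells, Flt3 in 27.8%, 39.4%, 47.3%, 36.1% and 3.85%, Hlf in 51.0%, 61.3%, 48.9%, 22.2% and 11.5%, and Ly6a in 15.3%, 17.8%, 16.8%, 11.1% and 0%. Cd34 and Flt3 were thus found most often in wells with 3 to 9 primary UMIs, and Kit was still found in 53.8% of wells with 30 or more. These intervals cover counting error only.

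**Figure D3:**
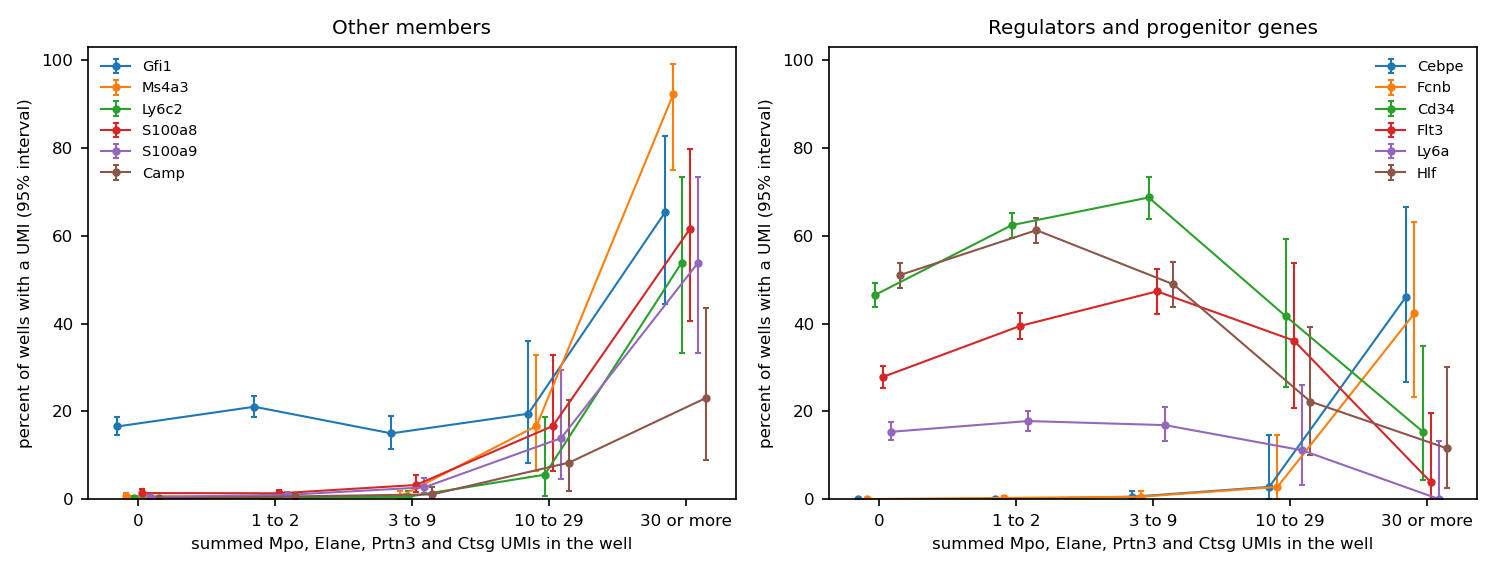
Both panels plot the percent of wells with a UMI of the gene, with 95% exact binomial intervals, against the summed Mpo, Elane, Prtn3 and Ctsg UMIs of the well; wells are thinned to 3000 UMIs and pooled over plates. Ms4a3 reaches 92.3% and Camp 23.1% in the last bin, and Gfi1 is at 15% to 21.0% in the first 4 bins.

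Wells with many late UMIs were mostly wells high in primary genes, whereas wells with few mostly were not. Of 16 wells with 10 or more summed S100a8, S100a9 and Camp UMIs, on 8 plates, 14 were among the 62 wells high in primary genes and 2 were not. Of the 93 wells with any late UMI, however, 70 had fewer than 10 primary UMIs, 25 of them on WT 3 and 16 on WT 2. Of the 62 wells high in primary genes, 39 had no late UMI. In the 14 wells high in both, the median counts were 30.5 for Mpo, 27.5 for Elane, 23.5 for Prtn3, 13 for Ctsg, 24.5 for S100a8 and 9 for S100a9. Cd34 was found in 0 of those 14 wells, Kit in 8 and Cebpe in 9. The larger of the exceptions, a well of Rev1 knockout 3, had 170 late and 2 primary UMIs, together with 42 UMIs of Ngp, 23 of Lcn2 and 12 of Ltf, which encode proteins of specific granules. The other, on WT 3, had 10 late and 4 primary UMIs.

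**Figure D4:**
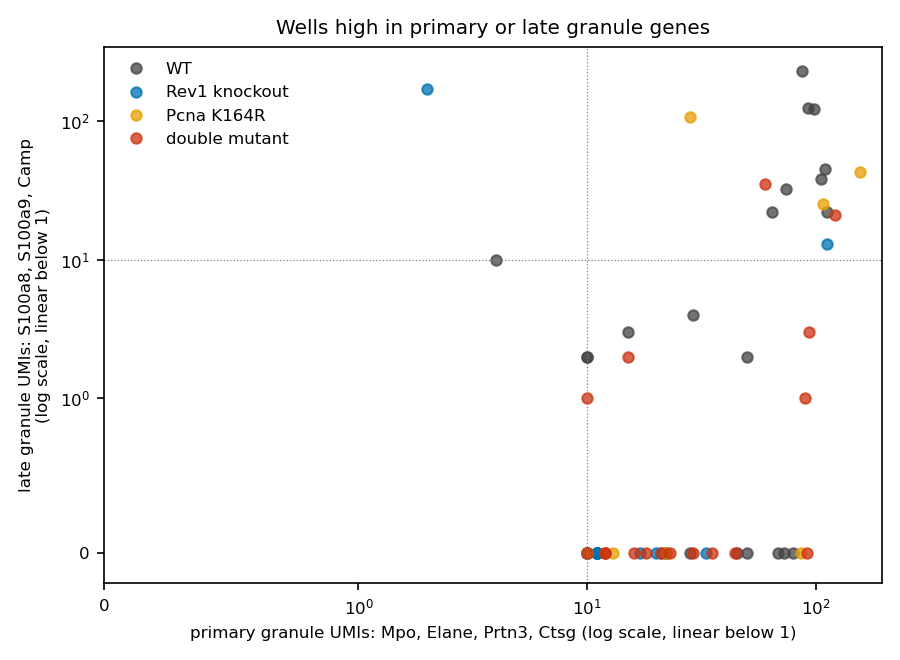
Each point is 1 of the 64 wells with 10 or more primary or late granule UMIs after thinning to 3000, placed by both sums on axes that are logarithmic above 1 and linear below; dotted lines mark 10 UMIs. Of the 16 wells above the horizontal line 14 lie to the right of the vertical one, and the 39 points at the bottom have no late UMI.

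Across wells the genes most like the primary granule sum were described by the within-plate Pearson correlation of log2(1 + UMI), averaged over 11 plates with at least 50 thinned wells (2794 wells, 6476 genes with at least 200 UMIs). Since all genes share the wells and their fixed depth, no test was made. The 4 primary genes, which are in the sum, had mean r of 0.852 (Mpo), 0.753 (Prtn3), 0.564 (Ctsg) and 0.490 (Elane), S100a9 had 0.320, S100a8 0.318 and Gfi1 0.0825. Elane had no UMI in thinned wells of Rev1 knockout 1 and 3, nor S100a8 and S100a9 in those of WT 1 and Rev1 knockout 1. The means of Elane, S100a8 and S100a9 still count all 11 plates, with a lowest r of 0, which lowers them. Outside the members the highest were Plac8 (0.349), F630028O10Rik (0.296), Alas1 (0.272), Gpr97 (0.256), Serpinb1a (0.227), Fcgr3 (0.202), Calr (0.202), Ap3s1 (0.2), Igfbp4 (0.188) and Ncf1 (0.188). Serpinb1a encodes an inhibitor of the granule proteases, Calr an endoplasmic reticulum chaperone, Alas1 the first enzyme of haem synthesis and Ncf1 a subunit of the neutrophil NADPH oxidase.

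Between genotypes, plate sums were compared with edgeR's quasi-likelihood test over 12221 genes with sort session as a term. Nothing in the labels says that plates came from separate fetuses, so p-values measure the spread between plates; titles of the double mutant plates carry a pair of numbers each and those of the others a single one, with no word on what they count. In double mutant against WT plates, 1 of 10 members, Gfi1, was lower, against 2.41% of all genes tested lower and 1.8% higher. Gfi1 had 78.9, 127 and 150 CPM in WT and 35.1, 43.9, 9.39 and 29.5 CPM in double mutant plates, with 79.2, 52.1 and 44.2 CPM in Rev1 knockout and 69.6 and 73.8 CPM in Pcna K164R plates. All 4 double mutant plates lay below all 3 WT plates, which held for 1 of 10 members and for 19.5% of genes in either direction. The log2 fold change was -1.59 ± 0.29 (SE; edgeR adjusted p = 0.0178).

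The Gfi1 call depended on the plates. It was -0.90 (edgeR adjusted p = 0.155) in session 1 alone, -2.10 (0.00970) in session 3 alone, -1.27 (0.198) when the library labelled double mutant replicate 4 was left out, -1.53 (0.0603) without WT replicate 2 and -0.91 (0.0744) without double mutant replicates 3 and 4. With flow cell in place of session it was -1.97 (0.119), and with wells thinned to 1000 UMIs -1.32 (0.0530). The share of wells expected to hold a Gfi1 UMI over all draws of 3000 UMIs was 22.1%, 28.4% and 27.8% in WT, 19.8%, 14.5% and 13.1% in Rev1 knockout, 18.4% and 20.2% in Pcna K164R and 9.12%, 12.6%, 2.62% and 9.60% in double mutant plates. The double mutant mean of 8.49% ± 4.21 (SD, n = 4) was 17.6 percentage points below the WT mean of 26.1% ± 3.44 (n = 3; exact two-sided permutation test, p = 0.0286, the smallest possible, adjusted over 5 pairs 0.111). Leaving out the library labelled double mutant replicate 4, the difference was -17.98 percentage points (adjusted 0.167). Every double mutant plate was below every plate of the other genotypes in this share. How many of all genes would do the same is not given, and the separation from Rev1 knockout was lost without erythroid-marker wells (below). The Rev1 knockout mean of 15.8% ± 3.52 (n = 3) and the Pcna K164R mean of 19.3% ± 1.28 (n = 2) lay between those of the double mutant and WT. Against WT the exact permutation p was 0.1 and 0.2 (adjusted 0.125 and 0.2), where the smallest possible is 0.1.

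Wells with erythroid markers also differed in share between genotypes, though not in the order of the Gfi1 share. They made up 25.7% ± 12.8 (SD, n = 4) of double mutant wells, 10.3% ± 2.45 (n = 2) of Pcna K164R, 5.49% ± 2.77 (n = 3) of WT and 3.81% ± 4.77 (n = 3) of Rev1 knockout wells. Rev1 knockout, lowest in these wells, had a mean Gfi1 share of 15.8%, below the 19.3% of Pcna K164R. On double mutant plates 1 to 4 erythroid-marker wells made up 21.2%, 27.7%, 11.8% and 42.2%, the last on the library labelled replicate 4. Double mutant 3, lowest of these, also had the lowest Gfi1 share (2.62%). Of the 16 erythroid markers 10 were higher in double mutant against WT, against 1.8% of all genes tested. The summed level of the 16 was 681 to 3750 CPM against 918 to 1529 CPM, with no marker at 0 in either group. Without erythroid-marker wells Gfi1 was expected in 11.2%, 17.0%, 2.97% and 16.0% of double mutant wells and 23.9%, 29.3% and 29% of WT wells. The log2 fold change between these genotypes was then -1.11 (edgeR adjusted p = 0.0728). Rev1 knockout plates were at 14.4% to 19.9%, overlapping the double mutant, and Pcna K164R plates at 20.8% to 22.1%, above it. Gfi1 is also known to act in stem cells (HSCs). Markers of HSCs had a summed level of 324 to 717 CPM in double mutant and 1337 to 1686 CPM in WT plates. Of these 5 of 12 were lower, against 2.41% of all genes tested, with none at 0. Lymphoid markers had 266 to 528 and 975 to 1106 CPM, and 4 of 9 tested were lower. The part of erythroid, HSC and lymphoid states in the Gfi1 difference was not tested.

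**Figure D5:**
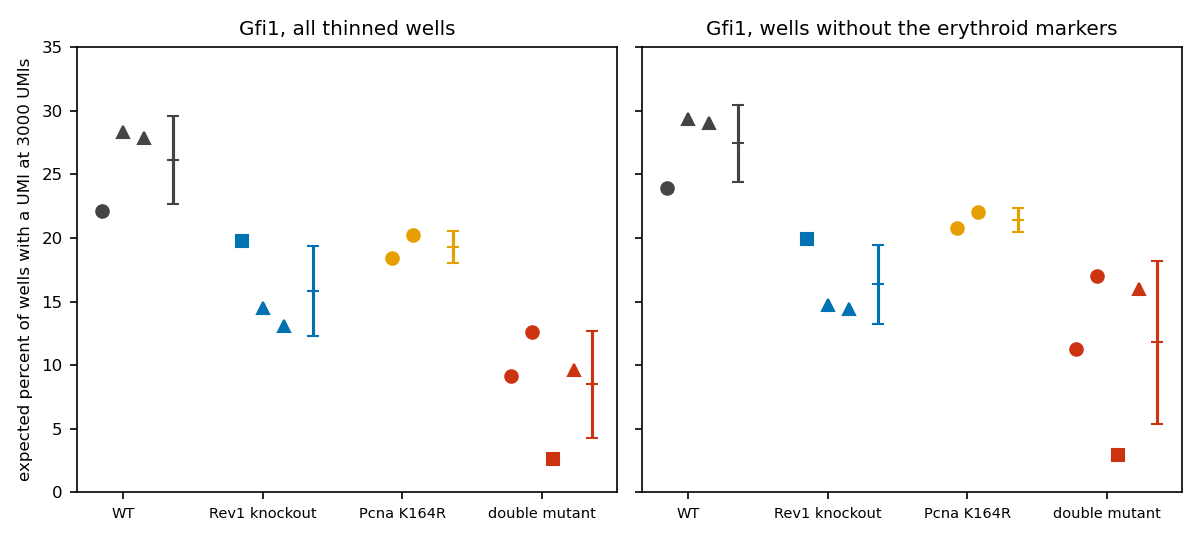
The expected percent of wells with a Gfi1 UMI at 3000 UMIs is plotted per plate for all thinned wells (left) and for those with fewer than 5 erythroid markers (right); symbols give the sort session, and bars the mean ± SD. Double mutant plates span 2.62% to 12.6% and WT plates 22.1% to 28.4% on the left, and 2.97% to 17.0% and 23.9% to 29.3% on the right.

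No granule gene passed edgeR's test in double mutant against WT plates. The log2 fold changes were -0.83 ± 0.62 for Mpo (edgeR adjusted p = 0.465), -1.21 ± 0.70 for Prtn3 (0.331), -0.05 ± 0.93 for Ctsg (0.991) and 0.61 ± 1.56 for Elane (0.884). The fitted sign of Elane differed from that of the plate means (120 against 543 CPM in WT). Within session 1 both double mutant plates exceeded the WT plate, within session 3 the double mutant plate lay below both WT plates, and session 2 held no WT plate. Sessions differed in the same way for Mpo, at 0.42 (0.487) in session 1 alone and -2.47 (0.0444) in session 3 alone, and for Prtn3, at 0.62 (0.238) and -2.49 (0.0637); without WT replicate 1 Prtn3 passed (-2.54, 0.0448). Once the library labelled double mutant replicate 4 was left out, Prtn3 was at -0.29 (0.940) and Mpo at 0.08 (0.983). Of the late genes S100a8 had 1.15 ± 1.57 (0.729) and S100a9 0.25 ± 2.21 (0.975), again with a sign opposite to that of the plate means, which were 72.3 against 597 CPM in WT for S100a8 and 26.4 against 371 CPM for S100a9. DESeq2 called Gfi1 and S100a9, the latter as higher in the double mutant (6.90 ± 2.07, DESeq2 adjusted p = 0.0135), against its plate means. Camp, with 1 UMI in the double mutant, had an adjusted p of 0.123 and a fitted fold that depends on the prior count. Ms4a3 had -0.01 ± 1.62 (0.998) and Ly6c2 -0.62 ± 0.63 (0.615). The expected share of wells with any primary granule UMI was 53.6%, 64.2% and 82.3% in WT and 52.6%, 43.6%, 48.5% and 33.6% in double mutant plates (difference -22.1 percentage points, exact two-sided permutation p = 0.0286, the smallest possible, adjusted 0.143). The difference was -18.4 percentage points (adjusted 0.25) when the library labelled double mutant replicate 4 was left out. With erythroid-marker wells removed, the means were 68.0% and 52.5%, and the plates overlapped, at 56.4% to 83.3% in WT and 47.2% to 59.7% in the double mutant.

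In Rev1 knockout against WT plates all 10 log2 fold changes were below 0 and none passed, as for 0% of all genes tested. The median over all genes was 0.01. At an unadjusted p under 0.05 there were 7 of 10 members, against 9.13% of genes. DESeq2 called 1, Ly6c2, with no share of all genes given for that test. Members share wells, so these are not 10 separate results. Without single plates all 10 stayed below 0, but Mpo ran from -1.71 to -0.30 and Prtn3 from -1.80 to -0.15. S100a9 ran from -4.68 to -0.40 and Camp from -9.28 to -0.69. The largest were Ly6c2 (-4.64 ± 0.72, edgeR adjusted p = 0.232), Elane (-3.44 ± 1.29, 0.524), Ms4a3 (-3.27 ± 1.08, 0.521), Camp (-2.73 ± 1.28, 0.554), S100a8 (-2.54 ± 1.07, 0.529) and Ctsg (-2.53 ± 0.78, 0.503), with S100a9 at -1.83 ± 1.33 (0.671), Mpo at -1.23 ± 0.55 (0.542), Prtn3 at -1.29 ± 0.64 (0.556) and Gfi1 at -1.19 ± 0.31 (0.386). The plates of these genotypes overlapped for every member, since WT 1 was low (no member without overlap, against 11.2% of genes). In session 3 alone, Gfi1 passed (-1.46, edgeR adjusted p = 0.0276), while Elane had -3.27 (0.297) and Ctsg -2.69 (0.179).

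In Pcna K164R against WT plates none of the members passed (0% of genes), none had an unadjusted p under 0.05 (1.96% of genes) and DESeq2 called none; Gfi1 had -0.64 ± 0.36 (edgeR adjusted p = 1). The double mutant against Pcna K164R gave no call among members (0.0409% of genes), 4 at an unadjusted p under 0.05 (S100a8, S100a9, Camp and Gfi1; 9.61% of genes) and none by DESeq2, with Gfi1 at -0.95 ± 0.30 (0.350). The interaction of both mutations gave no call (0% of genes), 3 members at an unadjusted p under 0.05 (Ctsg, Camp and Ly6c2; 5.24% of genes) and 1 by DESeq2, Ly6c2. For Gfi1 the interaction was 0.24 ± 0.41 (adjusted p = 1). These comparisons share plates, and the share of all genes called by DESeq2 is not given for them.

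In double mutant against Rev1 knockout plates, 1 of 10 members, Ly6c2, was higher (4.02 ± 0.82, edgeR adjusted p = 0.0354), against 0.663% of genes higher and 1.09% lower. The call rested on few cells: on double mutant 4, 48 of 49 Ly6c2 UMIs came from 1 well, and without the highest well of each plate the fold change was 2.61 (0.471). It was 5.37 (0.116) when the library labelled double mutant replicate 4 was left out, and also missed the threshold without Rev1 knockout replicate 2 (0.221), Rev1 knockout replicate 3 (0.0793), double mutant replicate 2 (0.0796), Pcna K164R replicate 1 (0.0505) or Pcna K164R replicate 2 (0.0506). Elane had 4.05 ± 1.73 (0.230), which passed without Rev1 knockout replicate 2, the plate with Elane (9.01, 0.0299), Ctsg 2.48 ± 0.98 (0.198), Ms4a3 3.26 ± 1.39 (0.228) and Gfi1 -0.40 ± 0.34 (0.577). S100a8 had 3.69 ± 1.64 (0.245) and S100a9 2.07 ± 2.36 (0.690), both against the sign of their plate means (72.3 against 96.0 CPM in Rev1 knockout, and 26.4 against 89.4 CPM). DESeq2 called 4 members as higher: Ly6c2, Ms4a3 (DESeq2 adjusted p = 0.0294), S100a8 (6.23, 0.00302) and S100a9 (9.0, 0.00148). The share of all genes called by DESeq2 is not given, so this count is not a result about the members.

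The wider pathway was read from 4 lists. In double mutant against WT, 2.41% of all genes tested were lower and 1.8% higher. Of 16 tested genes of the primary granule and its assembly, none passed in double mutant against WT, with a median log2 fold change of -0.70 against -0.04 for all genes. Gstm1, a glutathione transferase gene, came nearest (-1.11, edgeR adjusted p = 0.0543; -0.62, 0.413, when the library labelled double mutant replicate 4 was left out). Of 12 tested late granule and neutrophil genes none passed (median -0.83). Of 14 regulators 1 was lower, Gfi1 (median -0.72), and Irf8, which favours monocytes over granulocytes, had -1.33 (0.0520), and -0.85 (0.410) without that library. Of 19 receptors and progenitor genes 1 was lower, Il6ra, the interleukin-6 receptor gene (-1.93 ± 0.45, 0.0361), with a median of -0.71; it missed the threshold in 9 of 12 fits that left out 1 plate, those without any of the WT plates or without double mutant replicate 1, 2 or 4 included (log2 fold changes of -2.06 to -1.71). The others were further from it: Csf3r, the receptor gene for granulocyte colony-stimulating factor, had -0.88 (0.0846) and Cd34 -0.76 (0.0781). Leaving out the library labelled double mutant replicate 4, these were -0.56 (0.519) and -0.51 (0.511), and Il6ra was -1.75 (0.249). In Rev1 knockout against WT no gene of these lists passed, as for 0% of all genes tested. The medians in that comparison were -1.26, -0.39, -0.43 and -0.44 against 0.01 for all genes.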

How the data were processed

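The deposited tables give, per gene and well, observed UMI counts (whole numbers) and estimated counts of transcripts, which the authors derived from them for repeated barcodes; reads were aligned with BWA 0.7.15 to GRCm38 (mm10), per the submitters' processing notes, while no source used here names the counting tool or annotation. Wells holding 1000 UMIs or more, ERCC spike-in rows apart, were kept, and their observed UMI counts summed per plate. Genes passing edgeR's filterByExpr (12221; 10 of 10 members) were scaled by TMM and fitted with genotype and sort session over 12 plates (edgeR 4.0.16, limma 3.58.1, R 4.3.3; 6 residual degrees of freedom), with Benjamini-Hochberg adjustment over all genes tested and a threshold of 0.05. Errors of log2 fold changes are the fold change over the square root of F. CPM are counts per 1000000 UMIs of the plate's kept wells.

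For shares, wells were thinned without replacement to 3000 UMIs (Python 3.11.15, numpy 2.4.6), and genotypes were compared by exact permutation of plates (scipy 1.17.1); expected shares over all draws replaced the single draw for Gfi1 and for any primary UMI, a choice made after seeing the data. Intervals are exact Clopper-Pearson intervals at 95%; a count of 0 allows 3 counts of the total. Doublets were not called, as each well received 1 sorted cell. The model was tested on simulated data. Alternatives were DESeq2 1.42.0, the estimated transcript counts (rounded to whole numbers), other filters, depths and session terms, and leaving out plates.

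The text names all 10 members, up to 4 genes of each other list by smallest p in double mutant against WT, and the 10 genes most like the primary granule sum. The members and lists were chosen with earlier results of these data known. No pair of plates of a genotype held near-identical counts (chi-square per degree of freedom 8.11 to 373).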

Additional observations from a re-analysis of the deposited data

Results flagged for a closer look

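In 7 of 22 sets of 4 double mutant values, 1 plate lay far from the other 3 by Dixon's criterion. The sets share wells, and those of Camp hold 0 on all plates but 1. The rate of 1 in 20 that holds for separate sets therefore does not apply here. Double mutant replicate 4 had 20.4 CPM of Ly6c2 against 4.70 CPM on the next plate, 48 of its 49 UMIs from 1 well, and it was the only double mutant plate with Camp (0.416 CPM, expected in 0.0681% of wells, from 1 UMI, against 0 on the others). Double mutant replicate 3, with 17 wells deep enough to thin, had 11.8% of wells high in primary granule genes (next 2.69%). On that plate the expected share of wells with a UMI was 25.2% for Elane (next 8.16%), 28.9% for Ctsg (next 6.72%) and 11.7% for S100a9 (next 1.92%).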

How the results depend on the processing

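The fit as described called 1 member in double mutant against WT, 1 in double mutant against Rev1 knockout and 0 in each other comparison. With no filter on low counts these became 3 (double mutant against WT), 10 (Rev1 knockout against WT), 3 (Pcna K164R against WT), 7 (double mutant against Rev1 knockout), 4 (double mutant against Pcna K164R) and 6 (interaction). With DESeq2 they were 2, 1, 0, 4, 0 and 1. No share of all genes called is given for these fits or those below, so the counts are not results about the members. In double mutant against WT the count was 0 with flow cell in place of session, in session 1 alone, in wells thinned to 1000 UMIs, without erythroid-marker wells and without double mutant replicates 3 and 4; it was 2 in session 3 alone, and 0 to 2 without single plates (0 without WT replicate 2 or double mutant replicate 4; 2 without WT replicate 1, Rev1 knockout replicate 2 or replicate 3). In Rev1 knockout against WT it was 1 in session 3 alone, at 1000 UMIs and without double mutant replicates 3 and 4. In double mutant against Rev1 knockout it was 0 with no session term (Ly6c2 2.52), with flow cell (3.11), in session 3 alone (3.18), without the highest wells and without double mutant replicates 3 and 4 (5.15), 2 at 1000 UMIs, and 0 to 1 without single plates.

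Reversed values with no call were 0.42 (session 1 alone), 0.0782 (without double mutant replicate 4, within -1.93 to 0.0782 without single plates) and 0.42 (without replicates 3 and 4) for Mpo and 0.62 and 0.62 (session 1; without replicates 3 and 4) for Prtn3 in double mutant against WT, and 0.0781 (without erythroid-marker wells) and 0.56 (without replicates 3 and 4) for Gfi1 in double mutant against Rev1 knockout. The difference in wells high in primary granule genes, double mutant minus WT, was -4.31 percentage points at 5 or more UMIs, -1.61 at 20 or more, -4.44 at a depth of 1000 UMIs, -2.50 at 5000, -3.44 in session 3 and -1.84 to 2.67 without single plates. Rev1 knockout minus WT ran from -3.89 to 0.00546 without single plates, and Pcna K164R minus WT was 0.769 in session 1. Double mutant minus Rev1 knockout was -1.53 at 5 or more UMIs, -0.479 at 1000 UMIs and -0.0468 in session 3, and double mutant minus Pcna K164R was -0.0103 at 1000 UMIs. The share with any primary UMI, Rev1 knockout minus WT, ran from -12.6 to 1.79 percentage points without single plates (1.79 without WT replicate 3). The cause of these changes was not tested. No paired analysis was possible because the labels do not number the plates of a genotype; the replicate numbers used here follow accession order and pair nothing. The fits without erythroid-marker wells, without both replicates 3 and 4, and the expected shares were chosen after seeing the data. Depth limits double mutant replicate 3 most.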
